A study of Mus musculus with 2 samples.

Results

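Chaperones are proteins that help other proteins fold, and the genes described here encode the heat shock proteins and the chaperones of the cytosol and mitochondria. Of 40 genes on a fixed list, 39 were found as the gene name of a noncontrol array probe, with 56 probes in all, out of 27665 named genes on 55681 probes. Hspa1b had no probe under its own name. The 39 genes were divided by role into 8 stress-inducible genes, 6 genes of HSP90-beta and its cochaperones, 9 other genes of the HSP70 system, 9 genes of the CCT chaperonin and prefoldin, 5 mitochondrial chaperones and 2 heat shock factors.

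RNA came from CD4 T cells sorted from spleen cell cultures of female OVA-TCR-Tg mice, whose transgenic T cell receptor recognises ovalbumin (OVA), 24 h after OVA was added at 0.1 mg/mL. The naive-only culture held spleen cells at 2500000 cells/mL. The co-culture held fresh spleen cells at a lower density together with an equal number of spleen cells that had earlier received the bacterial superantigen TSST-1 (0.1 μg/mL, at 2500000 cells/mL), and which the labels call anergic. The labels give neither an age nor the number of mice in a culture. They also leave unsaid whether sorting separated fresh T cells from TSST-1 T cells, and if it did not, the co-culture RNA is a mixture. With 1 single-colour array in each group, nothing could be checked against replicates, no statistical test was made, and the number of arrays limits precision throughout.

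Chaperones work in relays. J proteins (the Dnaj genes) bring unfolded clients to HSP70, nucleotide exchange factors release them, and HSP90 with its cochaperones finishes kinases, steroid receptors and transcription factors, many of which T cells need when they are activated. The CCT chaperonin is a closed barrel built from different subunits that folds actin and tubulin, which prefoldin delivers to it. Mitochondria have their own HSP70, HSP60 and HSP90. The transcription factor HSF1 induces the stress-inducible genes by binding repeats of the letters GAA that alternate in direction, called heat shock elements. T cells are known to raise many chaperones when they leave the resting state and grow.

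Levels are log2 intensities relative to the 75th percentile of each array, and differences are co-culture minus naive-only. An error after a difference is technical, from the scanner software, and leaves out the variation between cultures. All 8 fixed T cell markers were well above background on both arrays, among them Cd4 (5.54 and 5.90) and Cd3e (6.11 and 6.48). They did not move together. Cd3d and Cd3g (both 0.90) were at least 1.5-fold higher in the co-culture, and Cd5 (-0.92) and Cd28 (-0.71) at least 1.5-fold lower. That is 25.0% in each direction, against 15.2% higher and 14.5% lower over all measured genes. All 13 B cell markers passed background in the naive-only culture and 11 did in the co-culture, where their summed signal was 12.3 against 55.4 times the 75th percentile. The 11 measured on both arrays had a median difference of -1.76. The summed signal of the T cell markers was 765 in the naive-only culture and 787 in the co-culture. Class II antigen presentation genes (median -2.49 over 6, summed signal 213 and 50.8) were lower on the same array. Myeloid markers were mixed, with 6 of 7 below 0 and a median of -0.98, but a summed signal of 15.2 in the naive-only culture and 15.6 in the co-culture. Natural killer markers (median -1.25 over 3 measured of 6) and erythroid markers (median -1.13 over 2 measured of 5) were lower. Dendritic cell markers had a median of -0.66 over 6, with 5 below 0 (54.4% of all measured genes were). Fscn1 (-4.56) and Flt3 (-2.87) were the lowest, and only Batf3 (3.51) was above 0. The summed signal of the dendritic cell markers, 174 and 206, came mostly from Siglech (7.35 and 7.23). Neutrophil markers were mixed, with a median of 0.18 over 3 measured of 5 and a summed signal of 11.6 and 13.3. In a mixed RNA sample, fewer cells of a type and less RNA per cell cannot be told apart. The part of these other cells in the chaperone values was not tested.

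Chaperone genes were lower on the co-culture array by a modest and widely shared amount. Of the 38 measured on both arrays, 34 had a difference below 0 (89.5%), against 54.4% of the 14378 measured genes. Of the 34, 27 lay below 0 by more than their technical error, as did 5122 of the 14378. The median difference of the 38 was -0.55 (1.46-fold lower), and the median of all measured genes was -0.05. At least 1.5-fold lower were 16 of the 38 (42.1%), against a background of 14.5%, whereas 2 (5.26%) were at least 1.5-fold higher, against 15.2%. Few members passed 2-fold. Ppid was the only one at least 2-fold lower (2.63% of members, background 5.54%), and Hspa2 the only one at least 2-fold higher (2.63%, background 7.72%).

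Chaperones are bright on these arrays, with 34 of the 38 above the median level of measured genes. Among these 34, 94.1% were below 0 and 41.2% at least 1.5-fold lower. Over all 7189 genes brighter than that median, 59.3% were below 0 and 11.6% at least 1.5-fold lower. The count of members at least 1.5-fold lower is sensitive to where the line falls. St13 (-0.587) and Cct6a (-0.586) lay just inside it, and Ahsa1 (-0.584), Cct5 (-0.565) and Dnajb1 (-0.564) just outside.

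**Figure D1:**
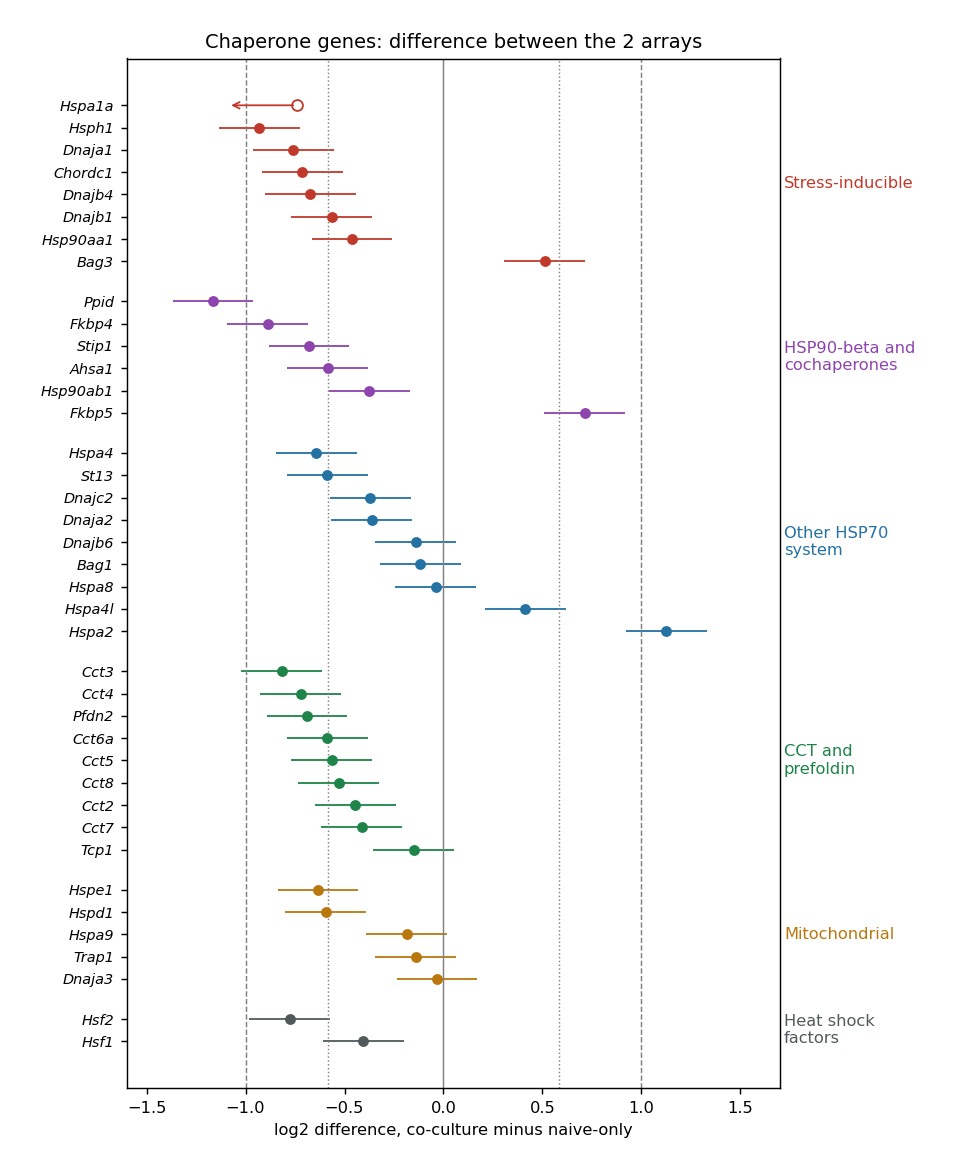
Log2 difference of each chaperone gene (co-culture minus naive-only) by role. Points are the brightest probe, bars the technical error of the scanner software, the open circle with an arrow the bound for Hspa1a, dotted lines 1.5-fold and dashed lines 2-fold. Only Bag3, Fkbp5, Hspa4l and Hspa2 lie to the right of 0.

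**Figure D2:**
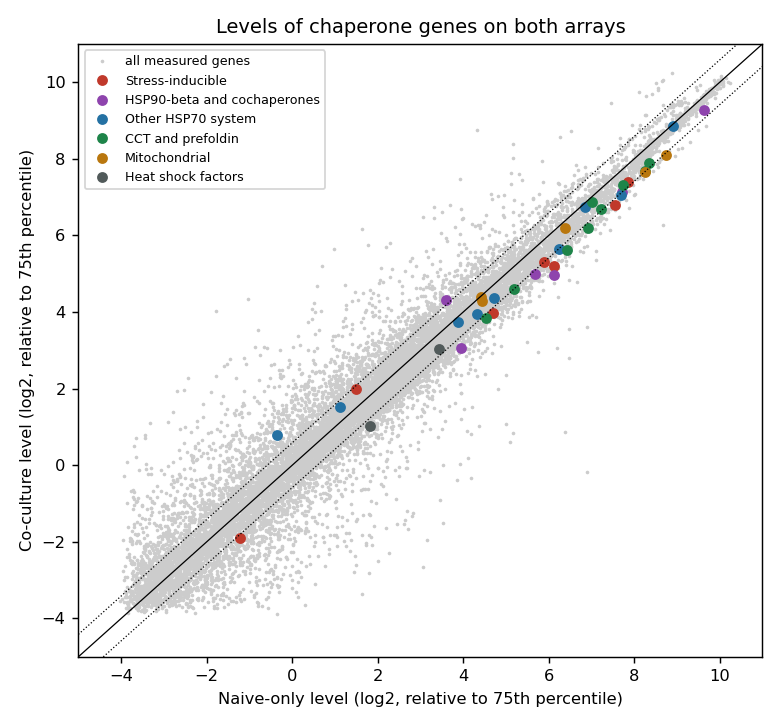
Level on the naive-only array (x axis) against the co-culture array (y axis), both log2 relative to the 75th percentile, for 14378 measured genes (grey) and 38 chaperone genes (coloured by role). The solid line marks equal levels and the dotted lines 1.5-fold; most chaperones lie at high levels just under the solid line.

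The stress-inducible genes are those that HSF1 is best known to raise in heat or proteotoxic stress. Of the 7 measured on both arrays, 6 were lower on the co-culture array and 1 was higher, with a median of -0.67 (1.59-fold lower). Among all measured genes 54.4% were lower. Hsph1, which encodes HSP110, a nucleotide exchange factor for HSP70, was at 6.13 (naive-only) and 5.20 (co-culture), a difference of -0.93 ± 0.20 (probe on chromosome 5, 150419744 to 150419803). Its other probe, 366 bases away, gave -0.94. Dnaja1, a farnesylated J protein of the cytosol, was at 7.54 and 6.78, a difference of -0.76 ± 0.20 (probe on chromosome 4, 40679954 to 40680014). Chordc1, a zinc-binding cochaperone of HSP90, was at 4.69 and 3.98, a difference of -0.71 ± 0.20 (probe on chromosome 9, 18118100 to 18118159). The dim J protein gene Dnajb4 was at -1.22 and -1.90, a difference of -0.67 ± 0.23.

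Dnajb1, which encodes HSP40, the main J protein partner of inducible HSP70, was at 5.88 and 5.32, a difference of -0.56 ± 0.20 (probe on chromosome 8 at 86135660 to 86135719, mm9). Hsp90aa1, the stress-inducible HSP90-alpha gene, was at 7.85 and 7.39, a difference of -0.46 ± 0.20 (chromosome 12, 111929248 to 111929307). Bag3, which couples HSP70 to selective autophagy, went the other way, at 1.48 and 1.99, 1.43-fold higher with a difference of 0.51 ± 0.20. It kept this direction under each scaling tried, as did the lower members of the group.

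Inducible HSP70 itself was close to the detection limit. The Hspa1a probe (chromosome 17, 35107117 to 35107176, mm9) passed background in the naive-only culture, at -3.16, where the lowest such level of any probe was -4.03. On the co-culture array it was not well above background, at -4.47. This gives a bound of at least 1.67-fold lower in the co-culture (at least 1.20-fold with another background correction, normexp), and 3.71% of all genes likewise passed background in the naive-only culture alone. Hspa1a and Hspa1b are near-identical copies, and the probe below may detect both, which could not be checked without transcript sequences. The probe is printed because the level of inducible HSP70 rests on it alone, and the 120 bases before each start because they show how alike the copies are. Of these 120 bases, 119 are the same in both genes, and of the whole 300-base windows 296. The capitals mark a pair of heat shock units, GAANNTTC, that begins 104 bases before each start. Promoter sequences are from RefSeq (GRCm38.p6), at chr17:34972157-34972276 for Hspa1a and chr17:34959239-34959358 for Hspa1b, both on the minus strand.
Hspa1a probe: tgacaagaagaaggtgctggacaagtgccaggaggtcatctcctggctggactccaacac
Hspa1a promoter: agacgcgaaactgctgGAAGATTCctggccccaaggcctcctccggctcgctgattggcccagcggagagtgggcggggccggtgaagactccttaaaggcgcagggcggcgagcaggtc
Hspa1b promoter: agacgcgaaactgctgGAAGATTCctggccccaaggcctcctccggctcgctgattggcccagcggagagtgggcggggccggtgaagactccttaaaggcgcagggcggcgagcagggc

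HSP90-beta and the cochaperones had a median of -0.63 over 6 genes, with 5 lower (54.4% of all measured genes were) and 1 higher. Hsp90ab1, the constitutive HSP90 gene, was at 9.64 in the naive-only culture and 9.26 in the co-culture, a difference of -0.38 ± 0.20 (probe on chromosome 17, 45704788 to 45704847). Its cochaperones other than Fkbp5 were lower by more. Ppid, which encodes cyclophilin 40, a prolyl isomerase that docks on HSP90, was at 6.13 and 4.96, a difference of -1.16 ± 0.20 or 2.24-fold (chromosome 3, 79407513 to 79407572). All 4 of its probes were lower, from -1.23 to -0.78. Fkbp4, the FKBP52 immunophilin of steroid receptor complexes, was at 3.96 and 3.07, a difference of -0.89 ± 0.20 (probe on chromosome 6, 128380528 to 128380587). Stip1, the adaptor that hands clients from HSP70 to HSP90, was at 5.67 and 4.99, a difference of -0.68 ± 0.20. Ahsa1, the activator of the HSP90 ATPase, was at 7.72 and 7.13, a difference of -0.58 ± 0.20.

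Fkbp5 stood apart from the other HSP90 immunophilins. It encodes FKBP51, which restrains the glucocorticoid receptor and is itself a well-known glucocorticoid target. The level of Fkbp5 was 3.60 (naive-only) and 4.32 (co-culture), 1.64-fold higher with a difference of 0.71 ± 0.20 (0.71 to 0.77 under 11 other settings; chromosome 17, 28536060 to 28536119). Fkbp4 and Fkbp5, which bind the same part of HSP90, thus lay on opposite sides of 0 in this pair of arrays, each by more than 3 times its technical error.

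The other HSP70 system genes were mixed, with a median of -0.14 over 9 genes and values from -0.64 to 1.13. Among genes brighter than the median gene, which leave out Hspa2 and Hspa4l, the median was -0.36. Hspa4, an HSP110 relative that recharges HSP70, was at 7.70 and 7.06, a difference of -0.64 ± 0.20. St13, which encodes the HSP70-interacting protein Hip, was at 6.23 and 5.65, a difference of -0.59 ± 0.20. The ribosome-associated J protein gene Dnajc2 (-0.37) and the cytosolic Dnaja2 (-0.36) were lower by less. Dnajb6, which keeps aggregation-prone proteins soluble, was at -0.14, and the exchange factor gene Bag1 was at -0.12, both within the technical error of 0.20.

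Both positive members of this group are HSP70 relatives known best from the testis. Hspa2 was at -0.34 in the naive-only culture and 0.78 in the co-culture, 2.18-fold higher with a difference of 1.13 ± 0.21 (chromosome 12, 77507769 to 77507828). With normexp the difference was 0.95, just under 2-fold. Hspa4l was at 1.12 and 1.53, a difference of 0.41 ± 0.20. Each has 1 probe.

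Hspa8, the constitutive HSP70 that carries most HSP70 work in resting cells, gave a different answer at each of its 3 probes. The brightest probe (chromosome 9, 40613223 to 40613282) was at 8.90 and 8.86, a difference of -0.04 ± 0.20. The middle probe, whose positions 40612755 to 40613050 span more than its own 60 bases, was at 8.92 and 8.42, a difference of -0.51 ± 0.20. The probe nearest the start of the gene (40611142 to 40611201) was at 7.87 and 6.98, a difference of -0.89 ± 0.20. The outer probes lie 2081 bases apart, and their differences were 0.85 apart. No other member with several probes had so wide a range, and whether Hspa8 was lower depends on the probe. The call turns on what all 3 probes bind, and none was shown to be the doubtful one. The 2 probes that gave the lower values are printed, as on the array. The brightest probe, which gives the Hspa8 value used in the group, is not printed.
Hspa8 probe at 40611142: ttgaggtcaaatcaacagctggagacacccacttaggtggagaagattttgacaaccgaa
Hspa8 probe at 40612755: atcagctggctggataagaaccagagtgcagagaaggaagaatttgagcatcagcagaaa

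**Figure D3:**
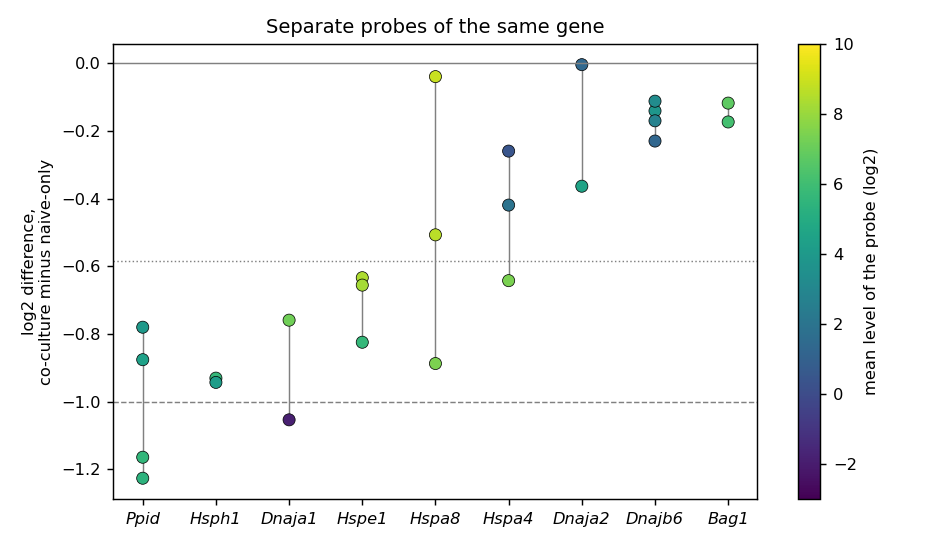
Log2 difference (co-culture minus naive-only) of each probe for the 9 chaperone genes with at least 2 probes above background on both arrays, coloured by the probe's mean level. The dotted line is 1.5-fold lower and the dashed line 2-fold lower; the 3 Hspa8 probes run from -0.89 to -0.04, and the 2 Hsph1 probes nearly coincide.

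Separate probes of a gene give a repeat reading of the same RNA. In 9 of 9 members with several measured probes, every probe lay below 0, and 50 of all 54 measured member probes did. Of all measured genes, each counted by its brightest probe, 54.4% lay below 0. The share over all probes, or over all genes with several probes, was not computed. These counts of probes therefore have no matching background. In these 9 genes the values nearest 0 were a Dnaja2 probe (-0.004) and the brightest Hspa8 probe (-0.04), within the technical error of 0.20. The first was 0.007 with normexp and the second 0.01 with median centring, so the 9 of 9 depends on the scaling. The range between probes was 0.01 for Hsph1, 0.06 for Bag1, 0.12 for Dnajb6 and 0.19 for Hspe1. It was 0.29 for Dnaja1, 0.36 for Dnaja2, 0.38 for Hspa4 and 0.45 for Ppid.

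All 8 CCT subunit genes and Pfdn2 were lower on the co-culture array, under every setting tried. Their median was -0.57 (1.48-fold lower) and their range -0.82 to -0.15. Below 0 were 54.4% of all measured genes and 59.3% of those brighter than the median gene. Cct3 was at 6.44 (naive-only) and 5.62 (co-culture), a difference of -0.82 ± 0.20 (probe on chromosome 3, 88124479 to 88124538). Cct4 was at 6.92 and 6.20, a difference of -0.72 ± 0.20 (probe on chromosome 11, 22901396 to 22901455). Cct2 was at 8.35 and 7.90, a difference of -0.45 ± 0.20 (probe on chromosome 10, 116490137 to 116490196). Cct6a (-0.59), Cct5 (-0.57), Cct8 (-0.53) and Cct7 (-0.41) were lower by similar amounts. Tcp1, the founding subunit of the complex, was at 7.02 and 6.87, and its difference of -0.15 ± 0.20 (probe on chromosome 17, 13116096 to 13116155) was within the technical error. Pfdn2, a subunit of the prefoldin that feeds CCT, was at 4.53 and 3.84, a difference of -0.69 ± 0.20. Each of these genes has 1 probe, so other choices of probe and filters could not change its value.

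Mitochondrial chaperones divided into a lower pair and 3 that were near the median of all genes. Hspd1, the HSP60 chaperonin, was at 8.26 in the naive-only culture and 7.66 in the co-culture, a difference of -0.60 ± 0.20 (chromosome 1, 55134697 to 55134756). Hspe1, the HSP10 lid of the same chaperonin, was at 8.73 and 8.10, a difference of -0.63 ± 0.20 (55148026 to 55148085), and its other probes gave -0.66 and -0.82. Hspa9, the mitochondrial HSP70 also called mortalin, was at 6.39 and 6.20, a difference of -0.19 ± 0.20 (probe on chromosome 18, 35097674 to 35097733). Trap1, the mitochondrial HSP90, was at 4.44 and 4.30, a difference of -0.14 ± 0.20. The J protein gene Dnaja3 was at 4.42 and 4.38, a difference of -0.03 ± 0.20 that was 0.02 with median centring. The group median was -0.19.

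The comparison between roles follows from these values. The inducible median lay 0.11 below the CCT median, less than the technical error of 0.20 of a single gene. This gap was between 0.01 and 0.13 in size under 11 other settings. It vanished with a narrower inducible group of Hspa1a, Hspa1b, Dnajb1, Hsph1 and Bag3, whose median was -0.564 against -0.565 for CCT. The CCT median lay 0.38 below the mitochondrial median, and between 0.36 and 0.40 under the same 11 settings. Only normexp, quantile normalization (which gives both arrays the same sorted values) and the authors' table changed this gap. The rest could not, since a shift of a whole array cancels in it and the genes that set both medians have 1 probe. The mitochondrial median is set by Hspa9, and the chaperonin pair of that compartment, Hspd1 and Hspe1, lay within the CCT range. With 1 array per group none of these gaps was tested.

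**Figure D4:**
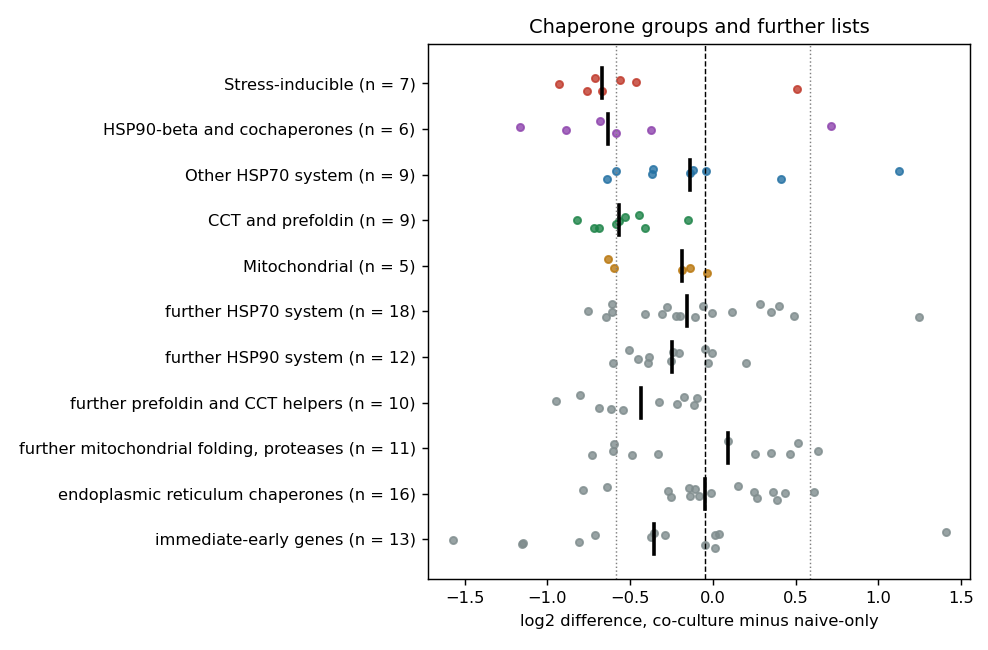
Log2 differences (co-culture minus naive-only) of single genes in 5 chaperone groups (coloured) and 6 further lists (grey), with the median of each as a black bar. The dashed line is the median of all 14378 measured genes (-0.05) and the dotted lines 1.5-fold; the inducible, HSP90 and CCT groups have medians near the left dotted line, and endoplasmic reticulum chaperones are centred on the dashed line.

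The factors that drive the stress-inducible genes were also lower. Hsf1, the master factor of the heat shock response, was at 3.43 (naive-only) and 3.03 (co-culture), a difference of -0.40 ± 0.20 (probe on chromosome 15, 76331320 to 76331379). Hsf2, a related factor that pairs with HSF1, was at 1.81 and 1.04, a difference of -0.78 ± 0.20 (probe on chromosome 10, 57232832 to 57232891). The RNA level of Hsf1 does not show its activity, which is set largely by its release from chaperones and by phosphorylation.

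Heat shock elements were looked for in the RefSeq promoter windows of the members, 250 bases before to 50 after a start, on both strands. Windows were found for 31 of the 40 genes, 41 windows in all. Each heat shock unit is the letters GAA or the reverse complement TTC. The search used 3 units in alternation (GAANNTTCNNGAA or TTCNNGAANNTTC) and 2 units (GAANNTTC or TTCNNGAA), and each 3-unit match also holds both 2-unit forms. A 3-unit match was found in 5 of 31 members (16.1%), against 0.662% of all 27025 genes with windows (0.603% of 32851 windows). A 2-unit match was found in 14 of 31 members (45.2%), against 17.0% of genes. By role, 7 of 8 inducible genes, 3 of 8 CCT and prefoldin genes, 2 of 4 mitochondrial genes, 1 of 4 HSP90 genes, 1 of 6 other HSP70 genes and 0 of 1 heat shock factor genes had a 2-unit match. A match of letters is a description of the window and not a sign of binding.

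The 3-unit matches are printed because the longer form was more frequent in the members than in all genes, and the capitals mark the units. Hsph1 (difference -0.93), Chordc1 (-0.71) and Dnajb6 (-0.14) each have 1 stretch. Hspd1 (-0.60) and Hspe1 (-0.63) share one, because their starts lie head to head 216 bases apart, and the 215 bases between these starts are given on the plus strand. The windows are at chr5:149636279-149636308 (minus strand) for Hsph1, chr9:18292260-18292289 for Chordc1, chr5:29735844-29735873 for Dnajb6 and chr1:55087933-55088147 for the shared promoter (GRCm38.p6).
Hsph1: gctgcagaTTCTGGAAAGTTCtcctcagta
Chordc1: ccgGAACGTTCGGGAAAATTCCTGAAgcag
Dnajb6: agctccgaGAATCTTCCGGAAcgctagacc
Hspe1/Hspd1: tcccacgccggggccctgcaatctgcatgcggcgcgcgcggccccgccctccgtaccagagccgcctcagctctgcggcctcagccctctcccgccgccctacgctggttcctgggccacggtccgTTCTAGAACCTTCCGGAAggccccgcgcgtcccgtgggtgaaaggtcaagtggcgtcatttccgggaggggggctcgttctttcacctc

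**Figure D5:**
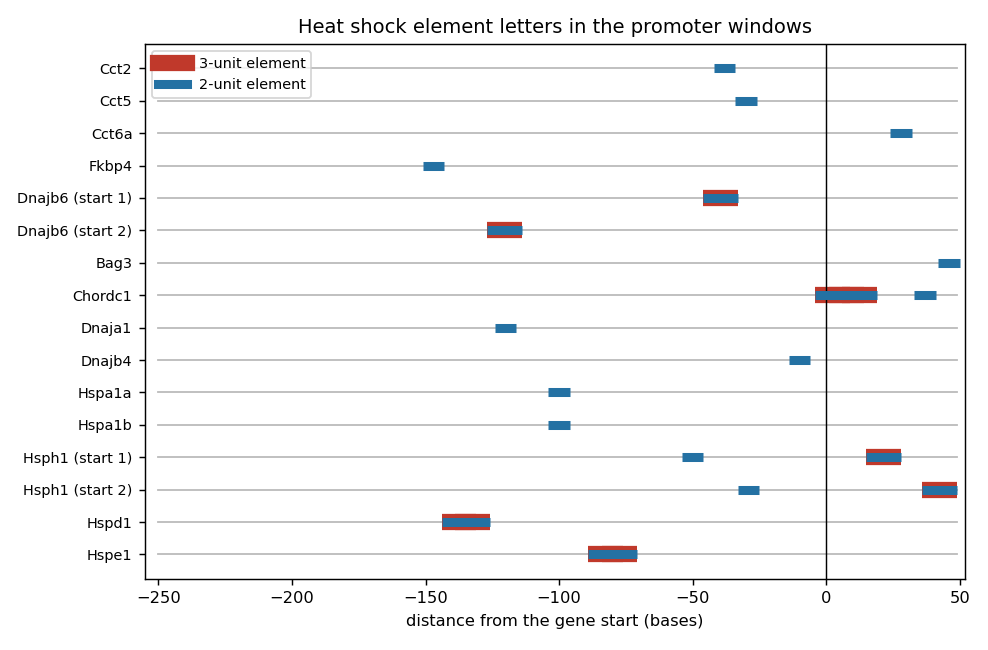
Positions of heat shock element letters in the promoter windows of members that have any, as distance in bases from the gene start (vertical line at 0). Red boxes are 3-unit and blue boxes 2-unit matches. Each row is a window with a match, so a start without one has no row, as for other starts of Dnaja1 and Hspd1. The Hspd1 and Hspe1 rows show the same stretch seen from either side.

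Members with and without the letters overlapped in their differences. The 5 members with a 3-unit match had differences of -0.93 to -0.14 (median -0.63), and the 24 measured members with a window but no 3-unit match had -0.89 to 1.13 (median -0.55). For the 2-unit match the medians were -0.61 over 12 members and -0.41 over 17. Bag3, the higher inducible gene, has a 2-unit match that begins 42 bases after its start, and Fkbp5 and Hspa2 have none. A CCAAT box (CCAAT or ATTGG) was found in 16 of 31 members (51.6%, against 41.1% of genes). An E-box (CACGTG) was found in 4 (12.9%, against 8.09%) and a TATA box (TATAAA or TTTATA) in 1 (3.23%, against 15.7%).

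Further genes of the same machinery were taken from lists that hold no member. These lists were chosen with earlier results of these data known, so they are not an independent check. Over 51 measured genes of the HSP70, HSP90, CCT and mitochondrial systems the median was -0.22, with 12 at least 1.5-fold lower (23.5%, against 14.5% of all measured genes) and 2 at least 1.5-fold higher (3.92%, against 15.2%). Helpers of CCT and the other prefoldin subunits were lowest, with 10 of 10 below 0 (54.4% of all measured genes were) and a median of -0.43. Further HSP90 genes had a median of -0.25 over 12, none past 2-fold. Further HSP70 genes had a median of -0.15 over 18, with the J protein gene Dnaja4 at 1.25 ± 0.21, the only one past 2-fold. Further mitochondrial genes, which include proteases, had a median of 0.09 over 11. Chaperones of the endoplasmic reticulum had a median of -0.05 over 16, none past 2-fold. That is the median of all measured genes.

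Small heat shock proteins and stress genes outside the chaperone relays went in both directions. Of 9 small heat shock genes only 4 were measured on both arrays. Cryab, a small heat shock protein of muscle and lens, was 4.55-fold higher in the co-culture and Cryaa 4.35-fold lower, by amounts that depend on the background correction (3.04-fold and 1.91-fold with normexp). Hspb1, which encodes HSP27, passed background in the naive-only culture alone (at least 1.86-fold lower in the co-culture), and Hspb2 in the co-culture alone (at least 2.04-fold higher). With normexp these differences were smaller than the bounds, 1.45-fold for Hspb1 and 1.57-fold for Hspb2. Among other genes that heat shock factors can drive, the metallothionein genes Mt1 and Mt2, which bind zinc and copper, were 11.7-fold and 8.65-fold higher, the heme oxygenase gene Hmox1 2.26-fold higher, and Gadd45b 3.50-fold lower. Immediate-early genes, which cell handling as well as antigen receptor signals can raise, had a median of -0.35 over 13. Jun (-1.57), Zfp36 (-1.16) and Nr4a1 (-1.15) were at least 2-fold lower, Zfp36 only without normexp (-0.81 with it), and Atf3 (1.41) was higher. Their part in the chaperone values was not tested.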

How the data were processed

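The deposited scanner files hold a background-subtracted processed intensity and its error for each spot, made by Agilent Feature Extraction 10.7.1.1 per the file headers (9.5.1.1 in the submitters' processing notes). RNA was amplified (Ovation) and labelled with Cy3 before hybridisation, per the labels' protocols, and amplification can alter relative levels. The authors' deposited table, linear intensity with nearly the same sorted values on both arrays, served as an alternative. Log2 processed intensity, averaged over a probe's spots, was scaled to the 75th percentile of 55681 noncontrol probes (299.4 and 301.3 units). A gene was represented by its brightest probe and counted as measured where this was well above background on both arrays. A gene above background on 1 array got a bound against the higher of the lowest such level and its own signal on the other. Probe positions are on mm9; RefSeq tables (GRCm38.p6) gave symbols for 27235 probes and the promoters. The background was all 14378 measured genes. The members, their groups and all lists were chosen with earlier results of these data known. All 40 members could be named; from other lists, genes past 2-fold, at most 5 per direction, and the few others named were chosen after their values were seen. No member probe was saturated or marked as an outlier. Scaling and counting were tested on simulated data. Python 3.11.15, pandas 2.3.3, numpy 2.4.6, R 4.3.3 and limma 3.58.1 (normexp, offset 50) were used.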

Additional observations from a re-analysis of the deposited data

How the results depend on the processing

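No paired analysis was possible because each group had 1 array, and for the same reason no replicate could be left out. Over 11 other settings, the count of members at least 1.5-fold lower ranged from 12 to 17 and the members' median from -0.56 to -0.47. Members below 0 numbered 32 to 35, but the settings measured 34, 38 or 39 members. The count was 32 of 34 among brighter genes, 32 of 38 with median centring and 35 of 39 with no background filter. Over all genes of a setting, 39.7% to 59.3% lay below 0 and 11.2% to 18.2% were at least 1.5-fold lower. The count at least 2-fold higher went from 1 to 0 with normexp (Hspa2 at 0.95) and among brighter genes, which leave Hspa2 out and bring the count at least 1.5-fold higher from 2 to 1. The count at least 2-fold lower went from 1 to 2 with no background filter and with genes above background on either array, both of which add Hspa1a, and with the second brightest probe, through Dnaja1. The median of the other HSP70 system genes was -0.36 among brighter genes. Of 414 single-gene values, 408 moved by less than 0.20, the median technical error of the members. The other 6 were Hspa8 (-0.51 and -0.48), Hspa4, Dnaja1 and Dnaja2 with other probes and Dnajb4 with normexp (-0.42). Most of the 414 had little room to move, so the count of 408 says little about stability. Filters and leaving out outlier spots kept the same probe and scaling, and median centring moved every gene by the same small amount. Other choices of probe could not change the 29 of 39 members with 1 probe. Low signal over background limits Hspa1a.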
